A study of Mus musculus with 32 samples.

Results

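The 10 genes followed here in the mouse vomeronasal organ (VNO) are known for guiding or sorting axons. They are the receptors Nrp1, Nrp2 and Robo2, the adhesion proteins Kirrel2 and Kirrel3, the ligands Sema3a, Sema3d and Sema3f, and the receptor and ligand Epha5 and Efna5. They were chosen by gene name, and 10 of 10 were listed among the 49671 genes of the count tables and passed the filter on low counts that left 18382 genes for testing. RNA came from the VNO neuroepithelium of 32 individual mice aged 42 days, 4 females and 4 males of each of 4 inbred strains: B6 (C57/BL6), 129 (labelled 129S6/SVEV, and named 129Sv/J in the study's text), SJL (SJL/J) and SWR (SWR/J). No mouse carried an engineered allele or received an agent according to the labels. The question was which of these genes differed among the strains or between the sexes. Library depth lay between 5106398 and 18640871 reads on genes (median 11461344).

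Each vomeronasal neuron sends its axon to the accessory olfactory bulb, where apical neurons, which carry V1r receptors and the G protein Gnai2, end in the anterior region and basal neurons, which carry V2r receptors and Gnao1, end in the posterior region. Nrp2, a receptor for secreted semaphorins, is known from the apical neurons, and Robo2, a receptor for Slit proteins, from the basal neurons. Kirrel2 and Kirrel3 are homophilic adhesion proteins known for sorting vomeronasal axons into glomeruli, while Epha5 and Efna5 belong to the Eph and ephrin system of contact signals. The dissected tissue also held supporting tissue, and in such bulk RNA fewer cells of a type cannot be told apart from less RNA per cell.

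A pair of libraries stood apart, because the summed TPM (counts scaled by exon length and by library total) of 4 ciliated respiratory markers was 83.3 in B6 female replicate 1 and 103 in 129 male replicate 1, against at most 25.8 in any other mouse. Of 7 markers of mature vomeronasal neurons 6 passed the filter and 0 were called between strains, and the strain medians of their summed TPM were close, from 2779 in 129 and 2794 in B6 to 3072 in SJL and 3195 in SWR. The seventh, Trpc2, was at 0 in every library, and the overlapping gene Xntrpc was counted in its place. Omp, with a mean of 1672 TPM, weighed most in this sum, and single markers could differ more. Gng13 averaged 156 TPM in 129 and 306 TPM in SJL. Tests of the 10 genes that crossed the FDR limit of 0.05 without the 2 libraries are given both ways.

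Kirrel2 was by far the most abundant of the 10 genes per unit of exon length. Its mean was 225 ± 76.0 TPM (SD, n = 32), against 44.7 ± 5.95 for Nrp2, 38.5 ± 6.04 for Kirrel3, 29.1 ± 5.12 for Robo2 and 28.0 ± 10.04 for Efna5. Epha5 followed with 14.7 ± 4.81, Sema3a with 12.8 ± 3.95, Sema3d with 9.91 ± 4.31, Sema3f with 8.86 ± 1.64 and Nrp1 with 3.78 ± 1.47 TPM. The order of neighbours held in 32 of 32 mice for Kirrel2 over Nrp2 and for Sema3f over Nrp1, and in 28 to 31 mice for Nrp2 over Kirrel3, Kirrel3 over Robo2 and Efna5 over Epha5. Robo2 exceeded Efna5 in 21 of 32 mice, Epha5 exceeded Sema3a in 21, Sema3a exceeded Sema3d in 24 and Sema3d exceeded Sema3f in 18, so the order of these neighbours was within their spread.

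Strain was the main source of variation for some of these genes and a minor one for others. In a joint test 7 of the genes differed among the 4 strains (edgeR quasi-likelihood, Benjamini-Hochberg FDR under 0.05), a share to be read against the 73.1% of all tested genes that did so. The 3 that did not were Nrp2 (FDR = 0.122), Kirrel3 (FDR = 0.0680) and Sema3f (FDR = 0.0789). Without the 2 libraries rich in ciliated markers Kirrel3 (FDR = 0.0334) and Sema3f (FDR = 0.0101) passed as well. Nrp2 passed when SJL female replicate 4 was left out (FDR = 0.0499), and so did Kirrel3 (FDR = 0.0496). With a fold change (FC) above 2 in at least 1 of 6 strain pairs, 3 of 10 genes were called, namely Sema3a, Sema3d and Nrp1, against 19.8% of all genes. At an FDR under 0.05 with no limit on FC, 10 of 10 passed in at least 1 pair, against 80.1%. By pair, the calls were Sema3d between B6 and 129 (1 of 10, background 11.1%), Nrp1 between SJL and 129 (1 of 10, 8.38%) and Sema3a between SJL and B6 (1 of 10, 7.99%). None of the 10 was called between SWR and 129 (7.73%), SWR and B6 (8.05%) or SWR and SJL (4.50%), and DESeq2 called 0 as well. In these pairs 7, 4 and 8 of them had an unadjusted p under 0.05 by edgeR. The share of all genes at that unadjusted limit was not computed per pair, so these 3 counts have no background to be read against. The median absolute log2 fold change (LFC) of the 10 genes ranged from 0.16 to 0.34 over the 6 pairs, and that of all genes from 0.17 to 0.25.

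**Figure D1:**
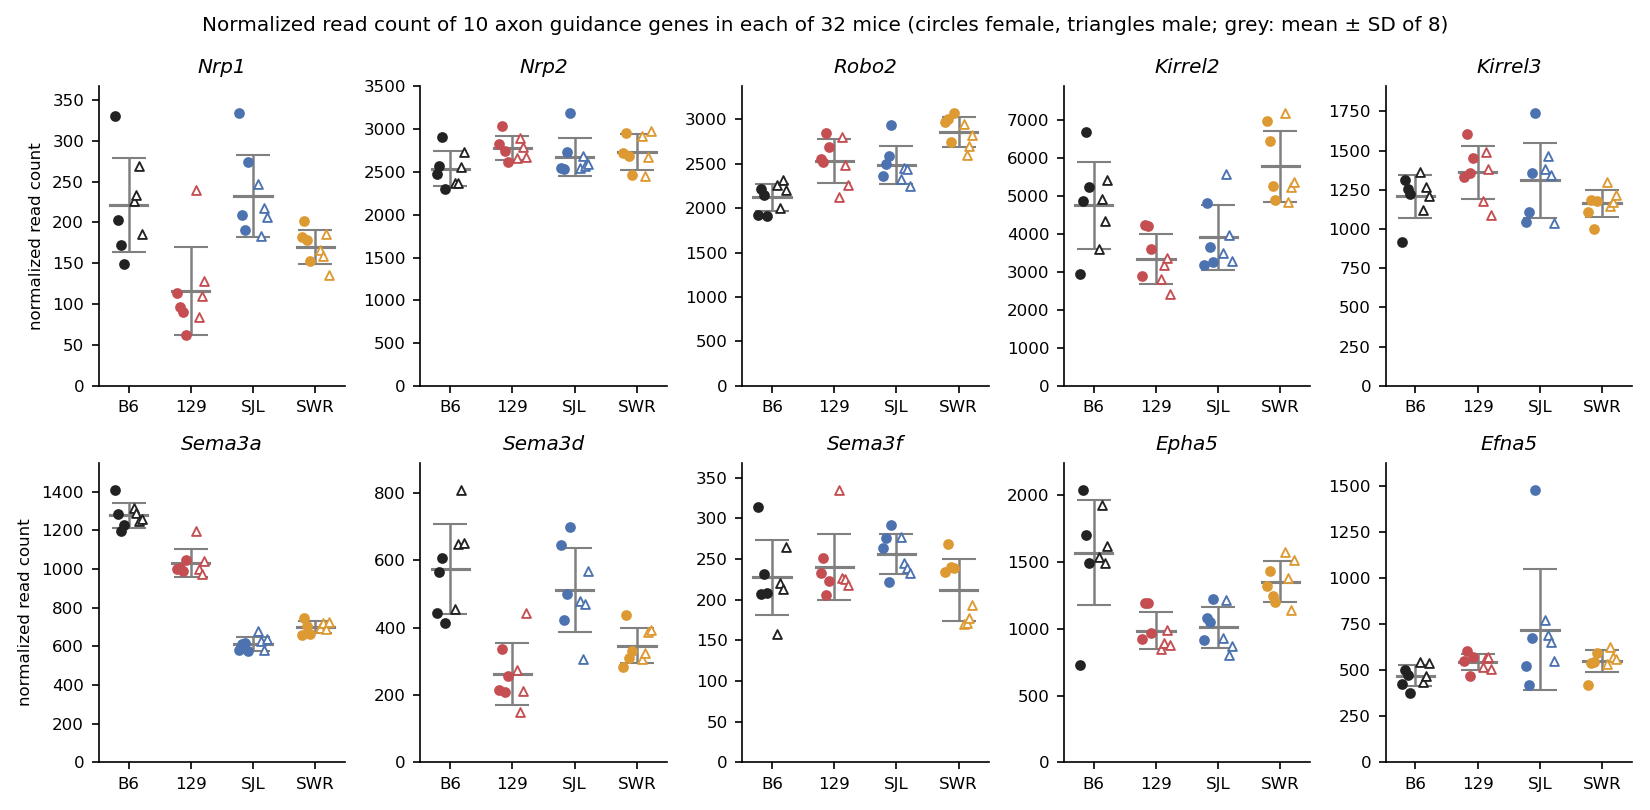
Normalized read count (y axis, from 0) of each gene in each of 32 mice, by strain (x axis); circles are females, triangles males, and grey bars the mean ± SD of 8 mice. Sema3a in SJL and SWR lay at 574 to 748, below every B6 and 129 mouse, while Nrp2 ranged from 2306 to 3186 with the strains overlapping.

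Sema3a encodes a secreted semaphorin that repels axons bearing neuropilin, and it showed the most regular strain pattern of the 10. Its normalized counts, which are read counts scaled for library depth, had a lowest, median and highest value of 1195, 1271 and 1409 in the 8 B6 mice and 973, 1003 and 1198 in the 8 129 mice. They were 574, 613 and 678 in SJL and 659, 698 and 748 in SWR. Every SJL and SWR mouse therefore lay below every B6 and 129 mouse, whereas B6 and 129 overlapped only through 129 male replicate 1, one of the libraries rich in ciliated markers. SJL was lower than B6 by an LFC of -1.06 ± 0.04 (SE, n = 8 per strain, edgeR FDR = 7.09e-21), and SWR was lower than B6 by -0.88 ± 0.04 (edgeR FDR = 1.60e-18). Against 129 the LFC was -0.75 ± 0.04 in SJL (edgeR FDR = 1.47e-16) and -0.57 ± 0.04 in SWR (edgeR FDR = 2.37e-13), and B6 exceeded 129 by 0.31 ± 0.04 (edgeR FDR = 1.47e-07). SWR and SJL, whose ranges overlapped, still differed by 0.19 ± 0.04 (edgeR FDR = 0.000801). Strain accounted for 97.1% of the variance of log2 Sema3a, the highest share among the 10 genes, and the SD within a strain and sex was 0.07 on the log2 scale. Over the fits that each left out 1 of 32 libraries, the LFC between SJL and B6 stayed between -1.08 and -1.04.

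Gene models inside and beside Sema3a were also highest in B6 in several cases. Calls over all tested genes leaned to B6 too, with 1602 higher and 442 lower in B6 than in 129. Against B6, 490 genes were called higher and 979 lower in SJL, and 463 higher and 1017 lower in SWR. Sema3a lies on chromosome 5 (13125414 to 13602565, GRCm38, plus strand). Of 8 tested genes within 500 kb, 5 were called in at least 1 strain pair, against 19.8% of all genes. Of the 5, 4 lie within the bounds of Sema3a without sharing exon bases with it, and the fifth, Gm10108, lies 3648 bases from it. Their mean normalized counts were low, at 97.8 for Gm42680, 28.8 for Gm43130, 21.4 for Gm42675, 16.7 for Gm42676 and 12.8 for Gm10108. Sema3a itself averaged 906. Genes with a read numbered 23772 to 35073 in the B6 libraries, 22690 to 23895 in 129, 24649 to 34165 in SJL and 23969 to 30966 in SWR. The part of this difference in the values of these models was not tested. Gm42680, on the opposite strand of Sema3a, was lower than in B6 by an LFC of -1.42 in SJL (edgeR FDR = 2.62e-12) and -1.18 in SWR (edgeR FDR = 1.39e-10). Gm43130, on the same strand, was lower by -1.29 in SJL (edgeR FDR = 1.27e-06) and -1.17 in SWR (edgeR FDR = 5.84e-06), and B6 exceeded 129 by 1.24 (edgeR FDR = 2.00e-06), so that B6 alone was high for this gene. Reads of unspliced Sema3a RNA and reads of a same-strand gene model in its intron cannot be told apart. The neighbouring semaphorin gene Sema3e, at a distance of 422711 bases, was lower than in B6 by only -0.31 in SJL (edgeR FDR = 0.000196) and -0.23 in SWR (edgeR FDR = 0.00429).

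**Figure D2:**
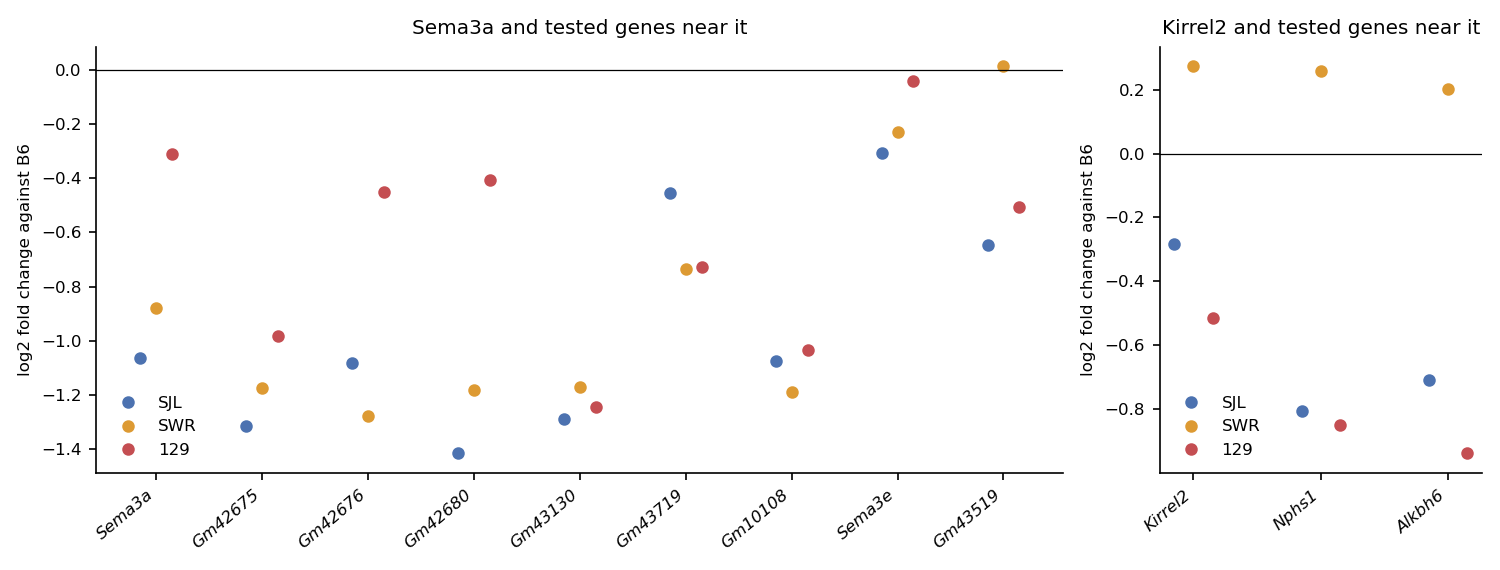
LFC against B6 (y axis, log2) of Sema3a and the 8 tested genes within 500 kb of it (left) and of Kirrel2, Nphs1 and Alkbh6 (right); each point is a strain. For Sema3a the SJL and SWR points stand at -1.06 and -0.88, and Gm42680 shows -1.42 and -1.18, while the SWR points of Kirrel2 and Nphs1, at 0.27 and 0.26, did not pass.

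The bases before the start sites are shown for the 3 genes called between strains and for Kirrel2, whose start faces that of a neighbouring gene with a like strain pattern. RefSeq (GRCm38.p6) gave a start for 8 of the 10 genes, not for Kirrel3 or Sema3f. The 250 bases before each start were read 5′ to 3′ on the gene's strand, without any base that GENCODE places in an exon, which left 75 for Kirrel2. Capitals mark matches on either strand to any of 5 motifs. These were GGGCGG, known as a motif of the Sp family and found in 32.7% of 32851 promoters, the homeodomain core TAATTA in 4.84%, and the EBF motif CCCNNGGG in 11.8%. The cyclic AMP motif TGACGTCA stood in 1.55% and the core promoter motif TATAAA in 12.4% of them. The Sema3a start of RefSeq lies inside the GENCODE bounds given above. The Nrp1 start and its window likewise lie inside the GENCODE bounds of Nrp1, which begin at 128358604.
Sema3a, chr5:13396534-13396783, plus strand: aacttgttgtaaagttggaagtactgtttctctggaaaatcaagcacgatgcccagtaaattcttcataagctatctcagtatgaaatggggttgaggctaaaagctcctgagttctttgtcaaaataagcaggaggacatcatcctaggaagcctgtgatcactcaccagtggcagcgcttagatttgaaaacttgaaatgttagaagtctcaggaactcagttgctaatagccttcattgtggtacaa
Sema3d, chr5:12382916-12383165, plus strand: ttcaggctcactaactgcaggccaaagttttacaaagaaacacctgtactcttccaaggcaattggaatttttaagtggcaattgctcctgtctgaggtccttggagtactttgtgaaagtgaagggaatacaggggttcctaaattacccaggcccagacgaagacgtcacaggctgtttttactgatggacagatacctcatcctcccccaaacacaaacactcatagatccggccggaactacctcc
Nrp1, chr8:128358823-128359072, plus strand: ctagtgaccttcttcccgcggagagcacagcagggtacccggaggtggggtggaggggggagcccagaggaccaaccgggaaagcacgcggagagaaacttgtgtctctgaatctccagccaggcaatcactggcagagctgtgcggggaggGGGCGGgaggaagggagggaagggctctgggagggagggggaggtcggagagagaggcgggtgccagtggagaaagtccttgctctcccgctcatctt
Kirrel2, chr7:30457691-30457765, minus strand: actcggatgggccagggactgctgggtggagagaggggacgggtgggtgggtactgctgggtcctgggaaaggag

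The windows of Sema3a and Sema3d were poor in G and C (40.8 and 46.8%) with 2 and 4 CG dinucleotides, and neither held any of these motifs. The median over all promoters was 52.4% and 6 CG dinucleotides. Nrp1 had 64.4%, 11 CG dinucleotides and 1 GGGCGG match. Efna5 and Nrp2, not printed here, were richer with 74.8 and 72.5%, 32 and 28 CG dinucleotides and 4 GGGCGG matches each. The only TAATTA among the 10 windows of the 8 genes stood before Epha5, and the only CCCNNGGG before the most downstream of 3 Robo2 starts. A match is a string of letters and was not tied to any factor.

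Sema3d, another secreted semaphorin, was highest in B6 and SJL and lowest in 129. Its normalized counts had a lowest, median and highest value of 413, 587 and 809 in B6, 306, 489 and 699 in SJL, 284, 328 and 436 in SWR and 151, 236 and 443 in 129. The ranges of every strain pair overlapped, that of B6 and 129 through the 129 mouse at 443. B6 exceeded 129 by an LFC of 1.14 ± 0.17 (SE, edgeR FDR = 8.12e-07) and SJL exceeded 129 by 0.96 ± 0.17 (edgeR FDR = 2.03e-05). SWR was lower than B6 by -0.75 ± 0.16 (edgeR FDR = 0.000391) and lower than SJL by -0.56 ± 0.16 (edgeR FDR = 0.00739), and did not pass against 129 (LFC 0.39, edgeR FDR = 0.0608).

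Nrp1, the neuropilin through which Sema3a acts and which blood vessels also carry, was the least abundant of the 10 and was lowest in 129. Normalized counts were 62.6, 103 and 240 at the lowest, median and highest in 129. The same values were 149, 215 and 330 in B6, 183, 213 and 333 in SJL, and 136, 172 and 202 in SWR. Of the 8 129 mice 7, at 62.6 to 128, lay below the other 3 strains. The eighth was 129 male replicate 1 at 240, and B6 female replicate 1 was likewise the highest B6 mouse at 330. SJL exceeded 129 by an LFC of 1.01 ± 0.18 (edgeR FDR = 2.96e-05), B6 by 0.95 ± 0.18 (edgeR FDR = 5.49e-05) and SWR by 0.55 ± 0.18 (edgeR FDR = 0.0158). Without the 2 libraries rich in ciliated markers the differences were 1.26 for SJL (edgeR FDR = 2.26e-09) and 1.09 for B6 (edgeR FDR = 9.51e-08), so that both exceeded an FC of 2. With all 32 mice SWR was also lower than SJL by -0.46 ± 0.17 (edgeR FDR = 0.0405), and did not pass against B6 (LFC -0.40, edgeR FDR = 0.0689). The call between SJL and 129 was lost in 7 of 32 fits that left out 1 library, namely 129 female replicates 2, 3 and 4, 129 male replicates 2 and 3 and SJL female replicates 1 and 4, with LFC no lower than 0.91.

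The summed fibroblast markers and the summed smooth muscle and pericyte markers also had their lowest median in 129, like Nrp1 and Sema3d. So did the sums of leukocytes (18.9 TPM, against 30.5 to 36.2 in the other strains) and red blood cells (13.1, against 24.7 to 30.3). The same held for bone and cartilage (13.2, against 17.9 to 25.0) and skeletal muscle (0.716, against 0.855 to 1.87). Among the non-neuronal lists, the summed endothelial, glial and ciliated markers did not. The summed TPM of 5 fibroblast markers (Col1a1, Col3a1, Pdgfra, Dcn and Lum), of which 3 were called in at least 1 strain pair, ranged from 151 to 310 in 129 with a median of 227. For B6 the range was 279 to 579 (median 457), for SJL 361 to 657 (median 523) and for SWR 317 to 555 (median 389). The 4 smooth muscle and pericyte markers, 1 of them called, summed to a median of 70.2 TPM in 129 (49.3 to 173), 165 in B6 (126 to 454), 163 in SJL (127 to 406) and 125 in SWR (91.4 to 288). Of 6 endothelial markers 0 were called, but Pecam1, Cdh5 and Kdr had their lowest mean in 129, with 2.08, 1.22 and 1.03 TPM against 2.64 to 3.67, 1.86 to 2.69 and 1.44 to 1.95 TPM in the other strains. Tie1 and Tek had their lowest mean in SWR, and Cldn5 had its lowest in B6. Cldn5, the most abundant of the 6, was at 10.5 TPM in 129 and 8.49 to 10.5 TPM elsewhere. Within groups over the 32 mice, which share library and depth, the deviations of Nrp1 had an r of 0.77 with the smooth muscle and pericyte sum, 0.67 with the ciliated, 0.56 with the endothelial and 0.33 with the fibroblast sum. Those of Sema3d had an r of 0.50 with the fibroblast, 0.43 with the smooth muscle and pericyte and 0.30 with the endothelial sum. The libraries rich in ciliated markers deviated in log2 Nrp1 by 0.88 (129 male replicate 1) and 0.69 (B6 female replicate 1). The r with marker sums were not computed again without them. No marker of these lists was at 0 in every library. The part of these cells in the Nrp1 and Sema3d results was not tested.

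Sema3f, a secreted semaphorin bound by Nrp2, differed in 1 strain pair when all 32 mice were used. Normalized counts had medians of 254 in SJL, 226 in 129, 217 in B6 and 213 in SWR, and ran from 157 to 335 over all mice with overlap in every pair. SWR was lower than SJL by an LFC of -0.29 ± 0.11 (edgeR FDR = 0.0319), with an FDR above 0.05 in 6 of 32 fits that each left out 1 library (up to 0.0803), namely SWR male replicates 1 to 4, SJL male replicate 1 and SJL female replicate 4. Without the 2 libraries rich in ciliated markers SJL also exceeded B6, by 0.24 (edgeR FDR = 0.0245, against 0.209 with them).

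The receptors Nrp2 and Robo2 varied little from mouse to mouse but differed in how far strain mattered. The SD of the log2 values within a strain and sex was 0.09 for each of them. Nrp2 normalized counts had a lowest, median and highest value of 2614, 2769 and 3034 in 129, 2455, 2706 and 2984 in SWR, 2539, 2583 and 3186 in SJL and 2306, 2517 and 2914 in B6. All ranges overlapped, and the only pair to pass was B6 below 129 by an LFC of -0.13 ± 0.05 (edgeR FDR = 0.0345). That Nrp2 difference had an FDR above 0.05, up to 0.0772, in 7 of 32 fits that left out 1 library, namely 129 female replicate 2, 129 male replicate 2, B6 female replicates 1 and 4 and B6 male replicates 1, 2 and 3. The 95% intervals of the other 5 Nrp2 differences lay between -0.16 and 0.20.

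Robo2 was highest in SWR and lowest in B6. Normalized counts were 2605, 2889 and 3069 at the lowest, median and highest in SWR, 2123, 2538 and 2842 in 129, 2250, 2449 and 2940 in SJL and 1911, 2178 and 2313 in B6. All 8 SWR mice lay above all 8 B6 mice, while every other pair of strains overlapped. SWR exceeded B6 by an LFC of 0.42 ± 0.06 (edgeR FDR = 1.91e-07), SJL by 0.20 ± 0.06 (edgeR FDR = 0.00544) and 129 by 0.16 ± 0.06 (edgeR FDR = 0.0171). B6 was lower than 129 by -0.25 ± 0.06 (edgeR FDR = 0.000290), and SJL exceeded B6 by 0.22 ± 0.06 (edgeR FDR = 0.00168). Sema3a, Robo2 and Kirrel2 were the 3 of 10 genes with no overlap of the 8 values in at least 1 strain pair, against 34.4% of all genes.

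Kirrel2 was highest in SWR and then B6, whereas Kirrel3 varied little among strains. Kirrel2 normalized counts had a lowest, median and highest value of 4836, 5323 and 7175 in SWR, 2952, 4898 and 6681 in B6, 3177, 3572 and 5564 in SJL and 2409, 3267 and 4222 in 129. All SWR mice lay above all 129 mice, and the other pairs overlapped. SWR exceeded 129 by an LFC of 0.79 ± 0.14 (edgeR FDR = 1.66e-05) and SJL by 0.56 ± 0.14 (edgeR FDR = 0.00166). B6 exceeded 129 by 0.52 ± 0.14 (edgeR FDR = 0.00196). SWR against B6 (LFC 0.27, edgeR FDR = 0.109) and SJL against 129 (LFC 0.23, edgeR FDR = 0.187) did not pass. SJL against B6 did not pass (LFC -0.28, edgeR FDR = 0.0895), but it did without the 2 libraries rich in ciliated markers (LFC -0.36, edgeR FDR = 0.0161). Kirrel3 ran from 919 to 1738 normalized counts with all strains overlapping and medians of 1371 in 129, 1351 in SJL, 1239 in B6 and 1176 in SWR, and the only pair to pass was SWR below 129 by -0.24 ± 0.09 (edgeR FDR = 0.0322). This Kirrel3 difference had an FDR above 0.05 in 9 of 32 fits that left out 1 library, up to 0.0868, namely 129 female replicates 2, 3 and 4, 129 male replicate 2, SWR female replicates 1, 3 and 4 and SWR male replicates 2 and 3.

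Nphs1, the gene of the related adhesion protein nephrin, starts 625 bases from Kirrel2 on chromosome 7 in the opposite direction (Nphs1 30458315 to 30487223, plus strand, and Kirrel2 30447534 to 30457690, minus strand). Nphs1 was far scarcer, with a mean of 1.30 TPM, and its normalized counts averaged 62.7 ± 17.0 in SWR, 51.5 ± 14.5 in B6, 29.3 ± 7.31 in SJL and 28.7 ± 7.83 in 129 (SD, n = 8). SWR exceeded 129 by an LFC of 1.11 ± 0.18 (edgeR FDR = 5.35e-06) and SJL by 1.06 ± 0.18 (edgeR FDR = 1.24e-05). Of 47 tested genes within 500 kb of Kirrel2, 7 were called in at least 1 strain pair, a smaller share than the 19.8% of all genes. Among these Alkbh6, an oxygenase gene 133230 bases away, was named after its values were seen and was higher than in 129 by an LFC of 1.14 in SWR (edgeR FDR = 4.06e-17) and 0.94 in B6 (edgeR FDR = 1.34e-14).

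**Figure D3:**
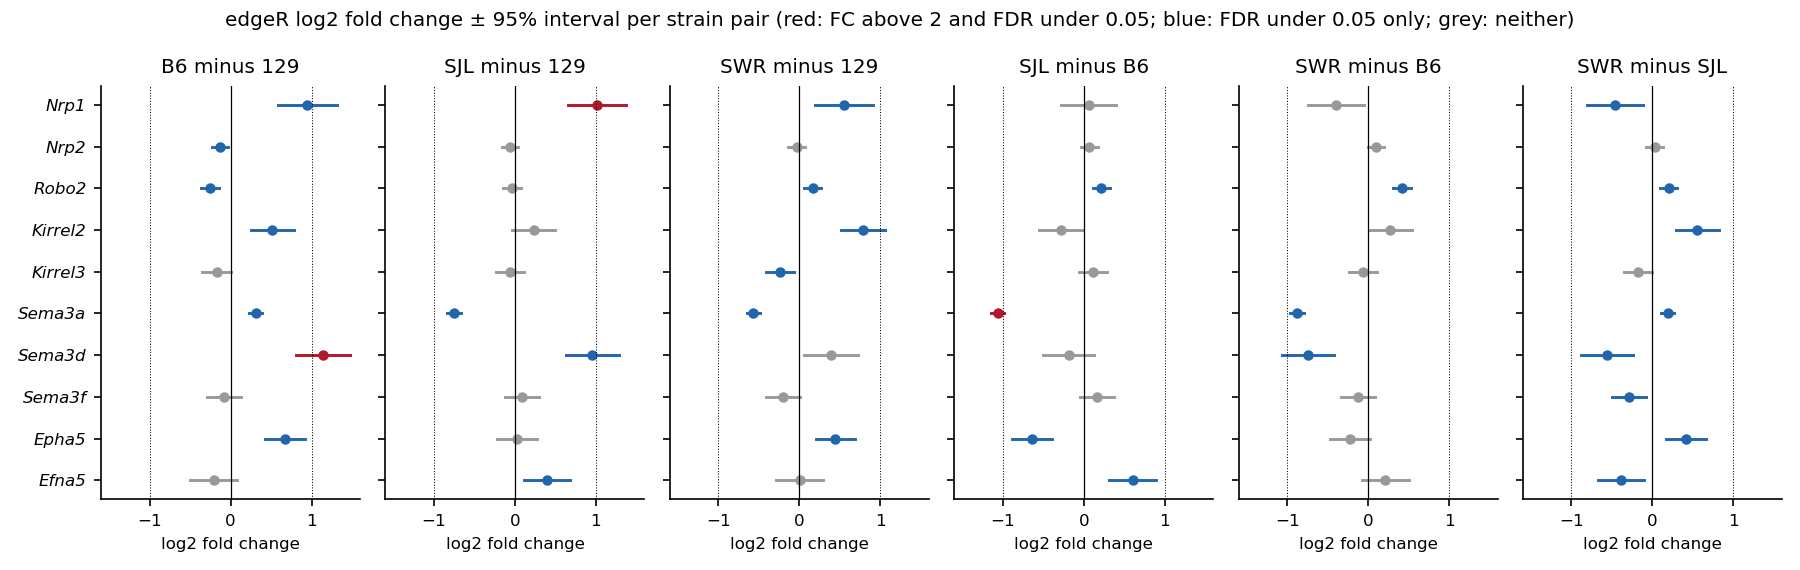
LFC (x axis, log2) with its approximate 95% interval for the 10 genes (rows) in the 6 strain pairs (panels), the first strain minus the second; dotted lines mark an FC of 2. Red points, Sema3d in B6 minus 129 at 1.14, Nrp1 in SJL minus 129 at 1.01 and Sema3a in SJL minus B6 at -1.06, were called.

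Epha5 was higher in B6 and SWR, and its ligand Efna5 was highest in SJL. Epha5, a receptor tyrosine kinase, had normalized counts of 732, 1577 and 2039 at the lowest, median and highest in B6, 1137, 1352 and 1574 in SWR, 803, 987 and 1220 in SJL and 850, 946 and 1195 in 129. The B6 mouse at 732 was female replicate 1, the library rich in ciliated markers, and the other 7 B6 mice lay above every SJL and 129 mouse. B6 exceeded 129 by an LFC of 0.67 ± 0.13 (edgeR FDR = 3.71e-05), and SJL was lower than B6 by -0.64 ± 0.13 (edgeR FDR = 8.29e-05). SWR exceeded 129 by 0.45 ± 0.13 (edgeR FDR = 0.00433) and SJL by 0.42 ± 0.12 (edgeR FDR = 0.00945). SWR against B6 did not pass (LFC -0.22, edgeR FDR = 0.149). Without the 2 libraries rich in ciliated markers it did (LFC -0.33, edgeR FDR = 0.00234), and B6 exceeded 129 by 0.76 (edgeR FDR = 2.22e-08).

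Efna5, a membrane-anchored ephrin, had normalized counts of 418, 663 and 1478 at the lowest, median and highest in SJL, 422, 552 and 625 in SWR, 470, 560 and 605 in 129 and 377, 469 and 542 in B6. The value of 1478 belonged to SJL female replicate 4, and the other 7 SJL mice reached at most 772. SJL exceeded B6 by an LFC of 0.60 ± 0.15 (edgeR FDR = 0.00113) and 129 by 0.39 ± 0.15 (edgeR FDR = 0.0313), and SWR was lower than SJL by -0.39 ± 0.15 (edgeR FDR = 0.0375). Without SJL female replicate 4 the difference from B6 was 0.37 (edgeR FDR = 0.00116), that from 129 was 0.15 (edgeR FDR = 0.202) and that of SWR from SJL was -0.15 (edgeR FDR = 0.218). Without that mouse B6 was also lower than 129 by -0.22 (edgeR FDR = 0.0340) and SWR exceeded B6 by 0.22 (edgeR FDR = 0.0418), which did not pass with it (edgeR FDR = 0.244 and 0.258).

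Ratios of 2 genes within a mouse, which do not depend on library depth, also varied by strain. The log2 ratio of Nrp2 to Robo2 averaged -0.07 ± 0.12 in SWR, 0.11 ± 0.05 in SJL, 0.14 ± 0.14 in 129 and 0.26 ± 0.12 in B6 (SD, n = 8). SWR was lower than B6 by -0.32 (exact permutation test, two-sided, adjusted p = 0.00168), SJL by -0.17 (adjusted exact p = 0.00186) and 129 by -0.20 (adjusted exact p = 0.0117), and SJL was lower than B6 by -0.15 (adjusted exact p = 0.0115). Kirrel2 counts were 2.42 times those of Kirrel3 in 129, 2.97 times in SJL, 3.85 times in B6 and 4.92 times in SWR, as geometric means. The largest difference of this ratio, 1.02 on the log2 scale between SWR and 129, had an adjusted exact p of 0.00168, from the smallest p of 0.000155 that 8 against 8 mice allow. Nrp2 counts were 25.6 times those of Nrp1 in 129 and 11.6 to 16.03 times in the other strains, with an adjusted exact p of 0.00245 for B6 and for SJL against 129. Of 18 comparisons over the 3 ratios, 13 had an adjusted p under 0.05.

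**Figure D4:**
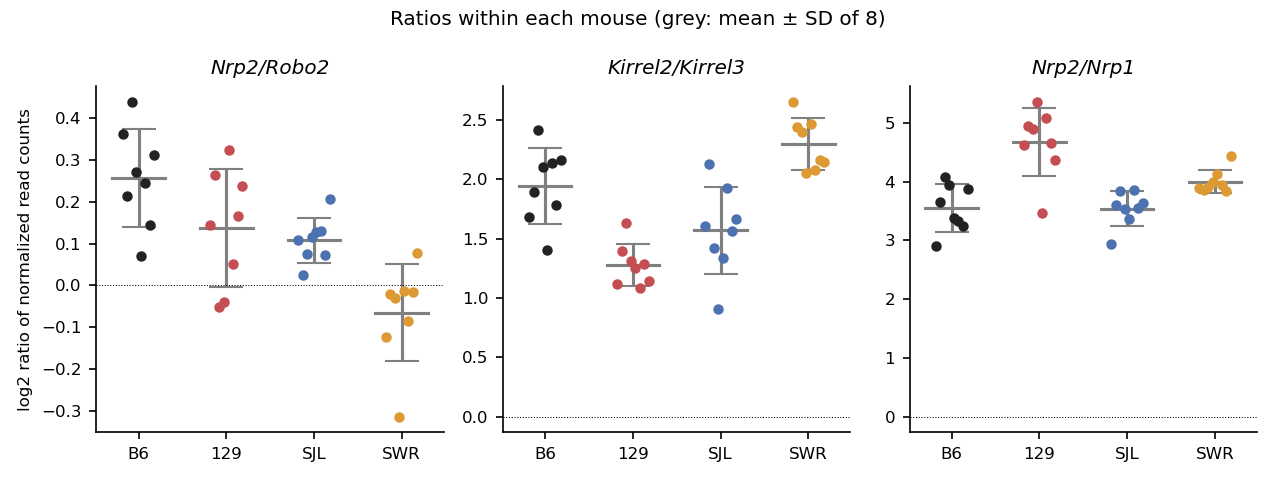
Log2 ratio of normalized read counts (y axis) within each mouse for 3 pairs of genes, by strain (x axis); points are mice, grey bars the mean ± SD of 8. The ratio of Kirrel2 to Kirrel3 has means from 1.28 in 129 to 2.30 in SWR, and that of Nrp2 to Nrp1 is highest in 129 with a mean of 4.68.

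Males and females did not differ detectably in any of the 10 genes. None passed an FDR under 0.05 between the 16 males and the 16 females (edgeR, background 0.283% of all genes), 0 had an unadjusted p under 0.05 (background 8.97%), and DESeq2 called 0. The largest difference was that of Sema3f, lower in males by an LFC of -0.14 with a 95% interval from -0.29 to 0.01. The widest interval, that of Nrp1, ran from -0.19 to 0.31. No gene passed the test of whether the sex difference differed by strain (background 0.0163%), by edgeR or DESeq2. An unadjusted p under 0.05 was seen for 1 of 10, Sema3f (edgeR FDR = 0.507). In SWR, Sema3f was at 233 to 269 in the 4 females and 170.1 to 193 in the 4 males, without overlap. It was the 1 of 10 genes whose sexes did not overlap in at least 1 strain, against 15.5% of all genes.

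Within a strain and sex, some of these genes rose and fell together from mouse to mouse. After centring each gene on the mean of its group, Robo2 and Kirrel3 had a Pearson r of 0.74 and a Spearman rho of 0.72 over the 32 mice (permutation p = 9.00e-05 and 0.000190, adjusted p = 0.00405 and 0.00780 over 45 pairs of genes). Kirrel2 and Epha5 had an r of 0.70 and a rho of 0.67 (permutation p = 0.00170 and 0.000500, adjusted p = 0.0262 and 0.00780). Kirrel3 and Efna5 had an r of 0.70 and a rho of 0.66 (permutation p = 0.00175 and 0.000520, adjusted p = 0.0262 and 0.00780). Without the 2 mice farthest from the median of the first gene, r was 0.74, 0.55 and 0.63. Within the strains, r of Robo2 and Kirrel3 was 0.60 in 129, 0.69 in B6, 0.94 in SWR and 0.94 in SJL, and r of Kirrel2 and Epha5 was 0.84, 0.79, 0.62 and 0.57 in the same order. That of Kirrel3 and Efna5 was 0.45, 0.72 and 0.89 in B6, 129 and SJL but -0.05 in SWR, so the relation did not hold within SWR. Of the 45 pairs, 5 passed by Pearson and 3 by both measures. Without the 2 libraries rich in ciliated markers 2 pairs passed, Robo2 with Kirrel3 and Kirrel3 with Efna5. Leaving out 1 library at a time gave 1 to 6 pairs, with 1 when SJL female replicate 3 was left out.

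The balance of the 2 neuron zones was measured as the log2 of summed V1r over summed V2r normalized counts (207 and 123 genes), which averaged -1.18 ± 0.15 in 129, -1.33 ± 0.08 in SJL, -1.38 ± 0.10 in SWR and -1.52 ± 0.09 in B6 (SD, n = 8). None of the 10 genes followed it within groups at an adjusted p under 0.05. Nrp2 had an r of 0.09 (rho = 0.11, permutation p = 0.625 and 0.555, adjusted p = 0.724 and 0.875) and an r of 0.16 without the 2 mice farthest from the median. Robo2 had an r of -0.35 (rho = -0.30, permutation p = 0.149 and 0.158, adjusted p = 0.497 and 0.441), with r from -0.49 to -0.21 within the 4 strains and -0.28 without the 2 farthest mice. The strongest was Epha5 with an r of 0.42 and a rho of 0.50 (permutation p = 0.0200 and 0.00804, adjusted p = 0.200 and 0.0804), positive within each of the 4 strains. Efna5 had an r of -0.18 and a rho of -0.12 (permutation p = 0.264 and 0.542, adjusted p = 0.661 and 0.875). With the G protein genes Gnai2 over Gnao1 as the measure instead, Efna5 passed with an r of -0.81 and a rho of -0.68 (permutation p = 3.00e-05 and 0.000350, adjusted p = 0.000300 and 0.00350), and -0.65 without the 2 farthest mice. Its r was -0.35 in 129, -0.58 in B6, -0.78 in SWR and -0.92 in SJL. SJL female replicate 4, the mouse with the highest Efna5, deviated by 1.11 in Efna5 and by -0.47 in log2 Gnai2 over Gnao1. Epha5 had an r of -0.01 with that measure (rho = 0.08, permutation p = 0.980 and 0.690, adjusted p = 0.980 and 0.767).

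**Figure D5:**
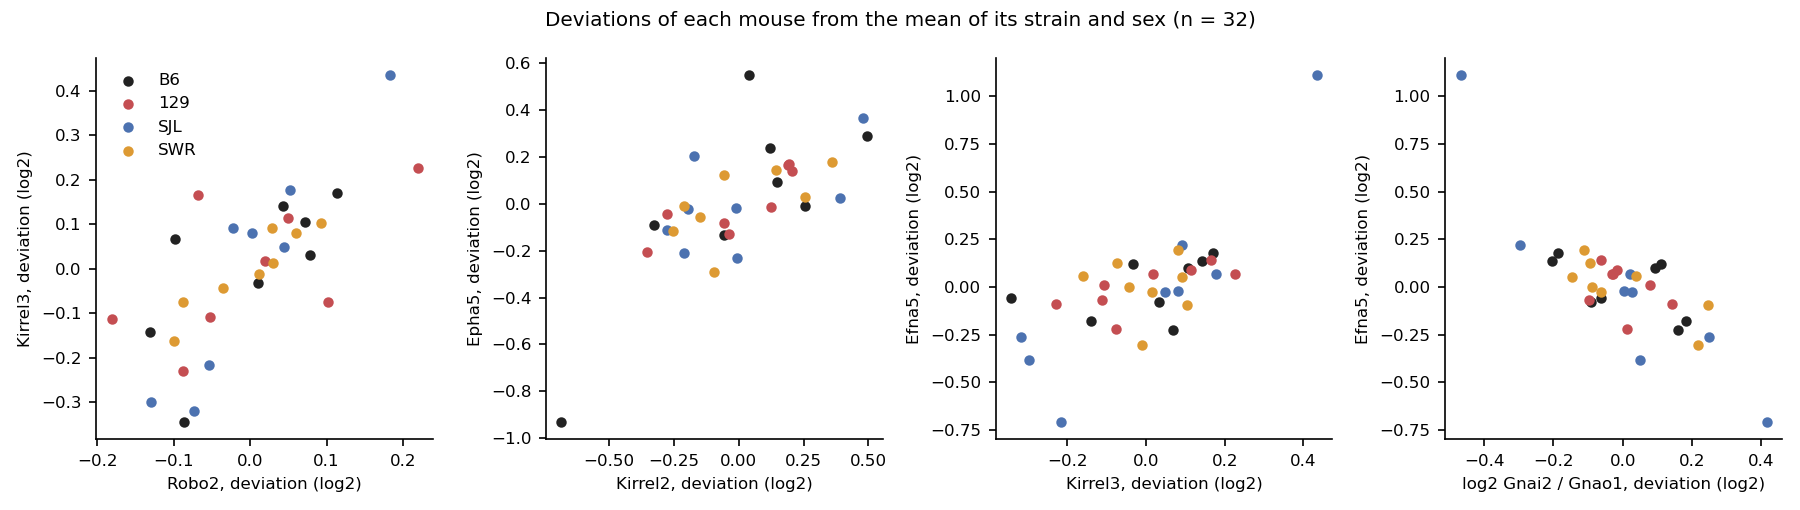
Deviation of each of 32 mice from the mean of its strain and sex, in log2 units on both axes, for 3 pairs of genes and for Efna5 against log2 Gnai2 over Gnao1; colours are strains. The Robo2 and Kirrel3 points rise together (r = 0.74), B6 female replicate 1 lies alone at the lower left of the Kirrel2 and Epha5 panel, and Efna5 falls as Gnai2 over Gnao1 rises (r = -0.81).

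The genes whose deviations were most like those of a member over the 32 mice, by Pearson r of log2 CPM centred by group, are given as a description. For Nrp1 they were Ets1, Zak and Mrvi1 (r = 0.90, 0.88 and 0.87), and for Sema3d Pcdh18, Lox and Mrc1 (r = 0.89, 0.87 and 0.86). For Kirrel2 they were Pacsin3, Scn3b and Sema7a (r = 0.85, 0.85 and 0.84), for Epha5 Specc1, Scn3a and Pcdh7 (r = 0.90, 0.87 and 0.85) and for Kirrel3 Srsf4, Mapre2 and Sv2c (r = 0.89, 0.88 and 0.87). Efna5 was most like Zmiz1, Zfp609 and Kat6a (r = 0.92, 0.91 and 0.90), and Sema3f like Ctdsp1, Piezo1 and Mdk (r = 0.87, 0.84 and 0.81). The likeness was lower for Nrp2, with St3gal2, Ptprj and Btbd3 (r = 0.83, 0.78 and 0.77), Robo2, with Epb41l2, Jak1 and Megf9 (r = 0.83, 0.82 and 0.82), and Sema3a, with Mphosph8, Hacd4 and Rsph10b (r = 0.81, 0.77 and 0.77). All values share library, depth and composition.

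Other genes of the same pathways were read from 8 lists of 106 genes, of which 96 were tested. Among these, 79 differed among strains, against 73.1% of all genes, and 17 were called in at least 1 strain pair, against 19.8%. None of the 96 passed between the sexes by edgeR, with 13 at an unadjusted p under 0.05, as were 8.97% of all genes. The Eph receptor list had 3 of 10 called, namely Epha7, Epha4 and Ephb1. Epha7 averaged 837 ± 88.5 normalized counts in SWR, 586 ± 79.6 in B6, 349 ± 36.8 in SJL and 341 ± 36.1 in 129 (SD, n = 8), so that SWR exceeded 129 by an LFC of 1.29 ± 0.08 (edgeR FDR = 2.78e-15). Like Epha5, it was higher in SWR and B6 than in SJL and 129. Among the ephrins 1 of 7 was called, Efnb3, which was highest in SJL, with 178 ± 23.9 normalized counts against 87.5 ± 20.9 in B6, 63.5 ± 6.80 in 129 and 47.5 ± 10.6 in SWR. Efna5 was highest in SJL too, but without SJL female replicate 4 its differences of SJL from 129 and from SWR did not pass. SWR was lower than SJL in Efnb3 by an LFC of -1.92 ± 0.11 (edgeR FDR = 5.74e-16).

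Among the semaphorins 2 of 17 were called, the membrane semaphorin Sema4g, higher in 129 than in the other strains, and the scarce Sema5b. This and the following counts of called genes are to be read against the 19.8% of all genes called in at least 1 strain pair. Sema4g averaged 45.2 ± 8.83 normalized counts in 129 and 10.3 to 14.9 in the other strains, and SWR was lower than 129 by an LFC of -2.16 ± 0.22 (edgeR FDR = 6.64e-10). Plxnd1, a plexin receptor, was the 1 called of 9 plexins and was higher in SJL than in B6 by 1.08 ± 0.11 (edgeR FDR = 2.21e-10). Of the netrins and their receptors, Unc5d and Unc5c (2 of 10) were called, both lowest in 129, and of the slits and other robos only Robo3 (1 of 9), which averaged 1.16 to 8.28 normalized counts per strain. Among 22 axonal adhesion genes 7 were called, among them Chl1, lower in SJL than in 129 by -1.92 ± 0.12 (edgeR FDR = 2.96e-15), Pcdh10, Dscaml1, Nphs1, Cntn6 and Cntn2. None of 12 growth cone genes was called by edgeR or DESeq2, and 8 of the 12 differed among strains in the joint test, no more than the 73.1% of all genes.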

How the data were processed

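Stranded, ribodepleted total RNA libraries of individual mice were trimmed with Trim Galore and aligned by the authors with STAR to GRCm38 (mm10), a B6 reference, so reads that differ from it in the other strains could be lost. The deposited counts are uniquely mapped reads per Ensembl gene on the reverse strand, and in the second deposited table, the signal called normalized counts here, the authors had scaled each library with DESeq2. The 10 genes and all lists were chosen with earlier results of these data known. Labels gave strain and sex, and the number in the library descriptions was taken as replicate number; nothing else tied mice together. No library was left out of the main tests, and no 2 libraries of a group agreed within sampling noise.

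Counts were tested with edgeR 4.0.16 in R 4.3.3 (TMM, filterByExpr over the 8 groups, quasi-likelihood F test with sex and strain terms), and p-values were adjusted by Benjamini and Hochberg over 18382 genes (FDR). Calls between strains needed an FC above 2 and an FDR under 0.05. The SE is the absolute LFC over the square root of F, and intervals of LFC are approximate. Ratios and correlations used log2 of normalized counts + 1, exact permutation of 8 against 8 mice and 100000 shuffles within groups (20000 where a library was left out). TPM values used GENCODE M21 exon lengths. Alternatives used DESeq2 1.42.0, its size factors, no filter, other limits and pseudocounts, a replicate block and single libraries left out. Correlations between pairs of the 10 genes were added after the data were seen. Named genes were the 10 members, the called genes of each list (at most 6), the 3 most like genes per member and exon-sharing genes, of which Mir1903 shares 80 bases with Nrp1 and had 0 reads. The edgeR tests (without the filter), the within-group correlations and the search for like genes were tested on simulated data, and the exact test on a fixed example. Other steps were not.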

Additional observations from a re-analysis of the deposited data

Results flagged for a closer look

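Sema3f in 129 male replicate 1 had a normalized count of 335, apart from the other 3 males of its group at 218 to 226. Its gap to the nearest was 0.931 of the range of the group, above the limit for 4 samples. Of 80 groups of 4 mice examined over the 10 genes, 1 stood out in this way, and chance alone gives about 1 in 20. The same library was rich in ciliated respiratory markers (103 TPM summed) and had the highest Nrp1 and Sema3a of its group, and the part of those cells in the Sema3f value was not tested.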

How the results depend on the processing

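The number of members called between strains was 3 with DESeq2 tests, with DESeq2 size factors in edgeR, without the filter, with the replicate block, with the 2 strains alone and without the 2 libraries rich in ciliated markers, and 2 to 3 with 1 library left out, where Nrp1 was the gene lost. At an FC above 1.5, 6 members (adding Efna5, Epha5 and Kirrel2) and 44 other guidance genes were called. The other guidance genes called were 17 with the replicate block, 13 to 22 under the other settings and 16 to 21 with 1 library left out. Members differing among strains were 7 with the replicate block, 8 without the filter, 9 without the 2 libraries rich in ciliated markers and 7 to 9 with 1 library left out. Counts for sex and for sex by strain stayed at 0 under every setting, 0 to 0 with 1 library left out. Ratios with an adjusted exact p under 0.05 were 13 at pseudocounts of 0.5 and 5, 11 with the replicate block and 12 to 14 with 1 library left out. Members following the zone balance were 1 (Efna5) with Gnai2 over Gnao1 and 0 otherwise, 0 to 0 with 1 library left out. Pairs of members correlated within groups were 2 without the 2 libraries rich in ciliated markers and 1 to 6 with 1 library left out. Where these counts moved, the cause was not tested. No LFC of a member in its chosen strain pair changed sign. With 1 library left out, 22 of these values had an FDR above 0.05, all of Nrp2, Kirrel3 or Sema3f.

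Same-numbered libraries did not deviate together (r from -0.29 to 0.48, median -0.01, with 5 of 32 libraries closest to their own number), so the replicate numbers were not taken as a pairing. DESeq2 size factors moved the median LFC of all genes by at most 0.01. Without the filter, and in DESeq2 tests, all 44957 genes with a read entered and that median moved by up to 0.62 and 0.50. Nrp1 rested on as few as 68 reads in a library, and its SD within a strain and sex was 0.31 on the log2 scale. Sema3f, with as few as 95 reads, had an SD of 0.18. Small differences of Nrp1 could be missed, and the part of read depth in this was not tested.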
